A study of Saccharomyces cerevisiae with 4 samples.

Results

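The pericentromeric regions of budding yeast were described here as the 16 windows that reach 5000 bp to each side of the centre of CEN1 to CEN16, 1 per nuclear chromosome, out of 1200 windows of 10 kb that fill the nuclear genome. Together they cover 160 kb, or 1.33% of the nuclear genome once the ribosomal DNA is set aside. They held 224 of 18481 distinct positions in the Xrn1-TAP library, 526 of 44955 with Dcp2-TAP, 298 of 25342 with Lsm1-TAP and 53 of 4743 with No-TAP, where each base on each strand counts at most once. The rule that sets the windows uses distance from the centromere and no tag counts.

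The study pulled chromatin down on IgG beads from Saccharomyces cerevisiae strains in which Xrn1 (XRN1-TAP), Dcp2 (DCP2-TAP) or Lsm1 (LSM1-TAP) carried a TAP tag, and from a strain with no TAP tag. All 4 strains share the background strain yMC458 and were grown in YPD, a rich glucose medium. Xrn1 is the cytoplasmic 5′ to 3′ exonuclease, Dcp2 removes the mRNA cap, and Lsm1 belongs to a protein ring on deadenylated mRNA that promotes cap removal. In ChIP-exo, exonucleases trim crosslinked DNA back towards the bound protein. Each strain is represented by 1 library, so differences between strains lack a replicate check. Where 3 values are given for the tagged libraries, they stand for Xrn1, Dcp2 and Lsm1 in that order.

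A yeast centromere is a short DNA element that holds a specialised nucleosome with the histone H3 variant Cse4, onto which the kinetochore is built. It needs no transcription unit or repeats, and genes read by RNA polymerase II lie close to it on both sides. The chromatin around it is known for a high load of cohesin, the ring complex that holds sister chromatids together until anaphase.

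The libraries held 158105 tags in Xrn1-TAP, 357674 in Dcp2-TAP, 211236 with Lsm1-TAP, and 33412 with No-TAP. The ribosomal DNA repeat was left out of the reference, and the rest of the genome then had 1.41, 3.46 and 1.91 positions per kb in the tagged libraries and 0.363 in No-TAP. Folds below are densities relative to that rest, with exact 95% intervals that cover counting error only. Positions are the main measure, as copies made by PCR raise tags and not positions, and tags stand beside them.

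The windows held close to the density of the rest of the genome in every library. Xrn1-TAP had 1.40 positions per kb near centromeres, a fold of 0.992 (0.866 to 1.13). Dcp2-TAP had 3.29 per kb and a fold of 0.949 (0.870 to 1.03), and Lsm1-TAP had 1.86 per kb and a fold of 0.975 (0.867 to 1.09). No-TAP had 0.331 per kb and a fold of 0.912 (0.682 to 1.20). All 4 intervals held 1. With the ribosomal DNA kept in the rest of the genome, the intervals of Dcp2-TAP (0.881, 0.807 to 0.960) and Lsm1-TAP (0.886, 0.787 to 0.993) lay below 1. Counted in tags the folds were 1.12, 1.06 and 1.04 in the tagged libraries and 1.10 in No-TAP.

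The share of a library's positions that lay near centromeres did not differ from No-TAP by its interval in any tagged library. It was 1.32% in Xrn1-TAP, 1.26% in Dcp2-TAP and 1.30% with Lsm1-TAP, against 1.21% in No-TAP. Relative to No-TAP the shares stood at 1.09 times (0.802 to 1.49) in Xrn1-TAP, 1.04 times (0.783 to 1.41) in Dcp2-TAP and 1.07 times (0.795 to 1.46) with Lsm1-TAP. These intervals leave room for a difference of about the size of their own bounds, because No-TAP gave only 53 positions there. Between the tagged libraries the ratio of shares was 1.05 (0.889 to 1.22) for Xrn1-TAP over Dcp2-TAP, 1.02 (0.851 to 1.21) for Xrn1-TAP over Lsm1-TAP and 0.974 (0.843 to 1.13) for Dcp2-TAP over Lsm1-TAP. Scaling to shares divides out the larger number of positions in the tagged libraries, so an excess common to the whole genome is not seen in these ratios.

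Among the 16 centromeres the counts ranged widely, from 4 to 38 in Xrn1-TAP, from 8 to 101 in Dcp2-TAP and from 9 to 44 with Lsm1-TAP, and from 0 to 11 in No-TAP. The nearest annotated gene on each side is named with each of them. CEN1, between TFC3, the gene of a subunit of polymerase III factor TFIIIC, and the nucleoporin gene NUP60, had 6, 22 and 14 positions in the tagged libraries, with 2 in No-TAP. CEN2, between ECM15 and the trehalase gene NTH2, had 38, 101 and 44 in the tagged libraries, with 11 in No-TAP. CEN3, between YCL001W-B and YCR001W, had 14, 18 and 14 in the tagged libraries, with 3 in No-TAP. CEN2 was the fullest window in all 4 libraries.

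CEN4, between RMD1 and the neutral trehalase gene NTH1, had 17, 34 and 28 positions in the tagged libraries, with 3 in No-TAP. CEN5, between IRC22 and the mannosyltransferase gene MNN1, had 14, 43 and 19 in the tagged libraries, with 7 in No-TAP. CEN6, between the pseudouridine synthase gene DEG1 and LOC1, which acts in mRNA localisation and ribosome assembly, had 12, 21 and 18 in the tagged libraries, with 1 in No-TAP. Among these, CEN5 was the fullest in Dcp2-TAP and CEN4 in Xrn1-TAP and Lsm1-TAP. CEN7, between the sterol enzyme gene ERG26 and the methyltransferase gene EFM5, had 7, 22 and 13 in the tagged libraries, with 3 in No-TAP. CEN8, between RPL14B, a ribosomal protein gene, and the oxysterol-binding protein gene OSH7, had 17, 44 and 22 in the tagged libraries, with 5 in No-TAP. CEN9, between YIL001W and SGN1, had 5, 21 and 9 in the tagged libraries, with 0 in No-TAP. CEN9 was below the density of the rest of the genome in all 4 libraries, as were CEN1, CEN3, CEN6, CEN7, CEN10, CEN12 and CEN16. The No-TAP interval of CEN9 reached 1.02 and so held 1.

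CEN10, between the proteasome subunit gene PRE3 and the vacuolar transporter gene AVT1, had 9, 33 and 17 positions in the tagged libraries, with 2 in No-TAP. CEN11, between MET14, an enzyme of sulfate assimilation, and the dynamin-like gene VPS1, had 15, 8 and 13 in the tagged libraries, with 1 in No-TAP. CEN12, between the mitochondrial fission gene DNM1 and YLR001C, had 4, 21 and 13 in the tagged libraries, with 3 in No-TAP. CEN11 was the lowest window of Dcp2-TAP and CEN12 the lowest of Xrn1-TAP. CEN13, between the vacuolar GTPase gene YPT7 and the polo kinase gene CDC5, had 21, 37 and 20 in the tagged libraries, with 1 in No-TAP. CEN14, between DOM34, which rescues stalled ribosomes, and the citrate synthase gene CIT1, had 27, 50 and 23 in the tagged libraries, with 7 in No-TAP. CEN15, between the cyclin gene PHO80 and RRP6, the exonuclease of the nuclear exosome, had 10, 27 and 12 in the tagged libraries, with 4 in No-TAP. CEN16, between the histone acetyltransferase gene HAT1 and the citrate synthase gene CIT3, had 8, 24 and 19 in the tagged libraries, with 0 in No-TAP.

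**Figure D1:**
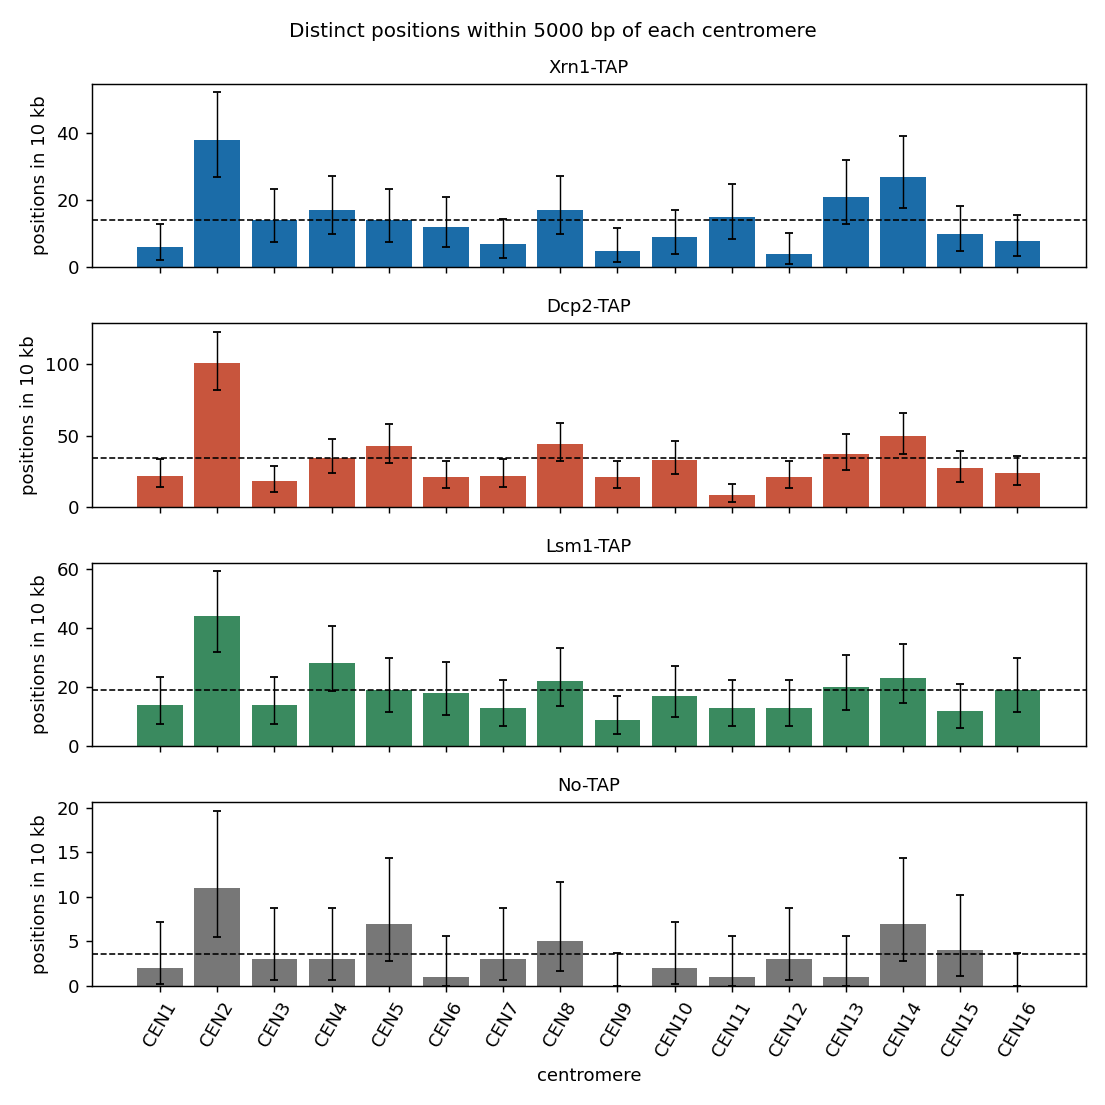
Distinct positions in the 10 kb window around each centromere (y axis, positions per window) for the 3 tagged libraries and No-TAP, with exact 95% Poisson bars and a dashed line at the number that the density of the rest of the genome gives. CEN2 is the tallest bar in every panel, at 38, 101 and 44 positions in the tagged libraries, with 11 in No-TAP.

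Set against an even spread of the library's positions, CEN2 stood at 1.91 to 3.70 times in Xrn1-TAP, 2.38 to 3.54 times in Dcp2-TAP and 1.67 to 3.09 times with Lsm1-TAP, and at 1.51 to 5.42 times in No-TAP, these being the ends of the exact intervals. CEN14 lay above 1 by its interval in Xrn1-TAP and Dcp2-TAP, and no other window did in any library. Of the 10 kb windows elsewhere, 90.9% had fewer positions than CEN14 in Xrn1-TAP and 85.7% in Dcp2-TAP. Below 1 by their intervals lay CEN1, CEN9 and CEN12 in Xrn1-TAP, these with CEN3, CEN6, CEN7 and CEN11 in Dcp2-TAP, CEN9 with Lsm1-TAP, and no window with No-TAP. The lowest centromere counts whose interval held 1 were 7, 24 and 12 in the tagged libraries. Fewer positions than that were held by 18.9%, 39.8% and 28.6% of the windows elsewhere. The 3 and 7 of 16 in Xrn1-TAP and Dcp2-TAP were near these shares, and the 1 of 16 in Lsm1-TAP was lower. In No-TAP even 0 positions gave an interval up to 1.02. Positions are not spread evenly anywhere in the genome, so these intervals are narrower than the spread between windows. The 1173 windows of 10 kb elsewhere had a median of 11, 26 and 15 positions in the tagged libraries, with 3 in No-TAP, and the centromere windows had a median of 13, 25.5 and 17.5 in the tagged libraries, with 3 in No-TAP. The middle part of the windows elsewhere, between the quartiles, ran from 7 to 16 in Xrn1-TAP, from 19 to 39 in Dcp2-TAP, from 11 to 21 with Lsm1-TAP, and from 1 to 5 with No-TAP.

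Of the 16 centromere windows, 1 reached 2 times the mean window in each library, and it was CEN2 each time. Over all 1189 windows that mark was reached by 8.24% in Xrn1-TAP, 7.32% in Dcp2-TAP, 6.9% with Lsm1-TAP and 8.66% in No-TAP, so 1 of 16 is near the background. CEN2 ranked 49th in Xrn1-TAP, 41st in Dcp2-TAP, 54th with Lsm1-TAP, and 41st with No-TAP among these windows. Relative to No-TAP, the ratio of CEN2 shares was 0.888 (0.445 to 1.93) in Xrn1-TAP, 0.962 (0.516 to 1.99) in Dcp2-TAP and 0.760 (0.386 to 1.63) with Lsm1-TAP. For each of the 16 centromeres and all 3 tagged libraries, the interval of the ratio of shares to No-TAP held 1, with a lower bound alone at CEN9 and CEN16, where No-TAP had 0 positions.

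The positions of the CEN2 window lay mostly on its left side, which holds the histone genes HTA2 and HTB2, a divergent pair that encodes H2A and H2B. On the left were 31 of 38 positions in Xrn1-TAP, 89 of 101 in Dcp2-TAP and 33 of 44 with Lsm1-TAP, and 10 of 11 with No-TAP. The 699 bp between the start codons of HTA2 and HTB2 held 12 positions in Xrn1-TAP, 31 in Dcp2-TAP, 10 with Lsm1-TAP, and 2 with No-TAP. That is 12.2 times the rest of the genome in Xrn1-TAP (6.29 to 21.3), 12.8 times in Dcp2-TAP (8.70 to 18.2), 7.49 times with Lsm1-TAP (3.59 to 13.8) and 7.88 times in No-TAP (0.955 to 28.5). The histone promoter was thus dense in each tagged library, and in No-TAP it rested on 2 positions.

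The CEN2 positions were not limited to the histone pair. From the first to the last base of the pair lay 42.1% of the window's positions in Xrn1-TAP, 39.6% in Dcp2-TAP, 29.5% with Lsm1-TAP and 18.2% in No-TAP. The part of the window outside it stood at 1.83 times the rest of the genome in Xrn1-TAP (1.15 to 2.78), 2.07 times in Dcp2-TAP (1.58 to 2.66), 1.91 times with Lsm1-TAP (1.30 to 2.71) and 2.92 times in No-TAP (1.33 to 5.53). The stretch between HTB2 and NTH2, which holds ECM15 and CEN2 itself, had 11, 37 and 14 positions in the tagged libraries, with 7 in No-TAP. The end of UTP20, a gene of ribosome assembly, that lies 3000 to 3500 bp left of CEN2 had 5, 9 and 8 positions in those libraries and 2 in No-TAP.

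Without CEN2, the other 15 windows had a lower density. The pooled fold was then 0.879 (0.757 to 1.02) in Xrn1-TAP, 0.818 (0.742 to 0.9005) in Dcp2-TAP and 0.887 (0.781 to 1.00) with Lsm1-TAP, and 0.771 (0.555 to 1.04) in No-TAP. The interval of Dcp2-TAP then no longer held 1. CEN2 alone gave 16.96% of the window positions in Xrn1-TAP, 19.2% in Dcp2-TAP, 14.8% with Lsm1-TAP and 20.8% in No-TAP. CEN2 was left out as the fullest window while the full windows elsewhere stayed in, a choice that by itself lowers these folds and all others given without CEN2.

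Windows that were full in one library tended to be full in the others. Over the 16 centromeres, Spearman's rho between libraries was 0.625 for Xrn1-TAP and Dcp2-TAP, 0.774 for Xrn1-TAP and Lsm1-TAP and 0.773 for Dcp2-TAP and Lsm1-TAP. With No-TAP it was 0.475 for Xrn1-TAP, 0.635 for Dcp2-TAP and 0.419 for Lsm1-TAP, on windows of few No-TAP positions. Without CEN2 the same rho values were 0.545, 0.725 and 0.724 between the tagged libraries and 0.361, 0.556 and 0.292 with No-TAP. These are descriptions with no test, and all libraries share the gene content, base composition and mappability of each window.

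**Figure D2:**
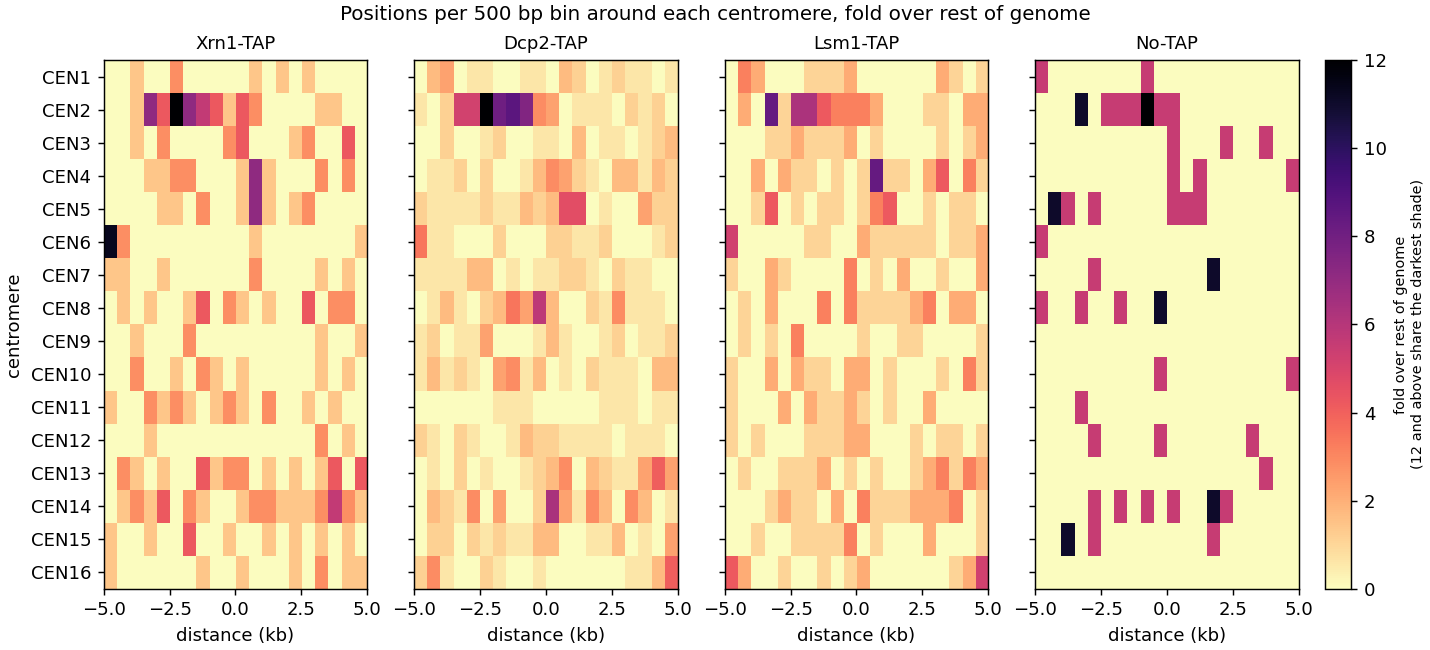
Positions per 500 bp bin (fold over the density of the rest of the genome, colour) by distance from the centre in kb (x axis) for each centromere (rows) in the 3 tagged libraries and No-TAP. A run of dense bins lies left of CEN2 in all panels. In the No-TAP panel 1 position already gives the first shade above 0.

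By distance from the centre, no library rose or fell at every step over the 5000 bp. With CEN2 kept, every library held more positions within 2500 bp of the centre than beyond it. In Dcp2-TAP, with 299 against 227, the intervals of the inner and outer folds did not overlap, and without CEN2 they did. Without CEN2 the inner part held fewer positions than the outer in Xrn1-TAP (88 and 98) and Lsm1-TAP (126 and 128). In Dcp2-TAP and No-TAP it still held more. In steps of 500 bp with both sides together, Xrn1-TAP had 25, 24, 25, 18, 23, 23, 26, 20, 21 and 19 positions from the innermost step outwards. Dcp2-TAP had 78, 60, 52, 52, 57, 45, 40, 42, 52 and 48, and Lsm1-TAP had 42, 32, 28, 24, 26, 27, 37, 18, 28 and 35. No-TAP had 10, 7, 3, 8, 3, 5, 5, 5, 2 and 5. The innermost step was the fullest in Dcp2-TAP, Lsm1-TAP and No-TAP, and the fullest of Xrn1-TAP began 3000 bp out.

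The innermost 500 bp had 1.11 times the density of the rest of the genome in Xrn1-TAP (0.717 to 1.64), 1.41 times in Dcp2-TAP (1.11 to 1.76) and 1.38 times with Lsm1-TAP (0.991 to 1.86), and 1.72 times in No-TAP (0.826 to 3.17). Of these intervals that of Dcp2-TAP did not hold 1. Without CEN2 they were 0.992 (0.614 to 1.52), 1.33 (1.03 to 1.68) and 1.29 (0.910 to 1.78) in the tagged libraries and 1.47 (0.634 to 2.90) in No-TAP. The nearest coding genes lie 109 to 1474 bp from the centres, 18 of the 32 within 500 bp, so the innermost step holds both gap and gene ends. Without CEN2 the 5 Dcp2-TAP steps from 1000 to 3500 bp stood at 0.693, 0.713, 0.674, 0.693 and 0.558, each with an interval below 1. With CEN2, the lowest Dcp2-TAP step lay at 3000 to 3500 bp, with 0.722 times (0.516 to 0.983), and the lowest Lsm1-TAP step at 3500 to 4000 bp, with 0.589 times (0.349 to 0.931). By tags these steps stood at 0.991 in Dcp2-TAP and 0.412 in Lsm1-TAP.

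**Figure D3:**
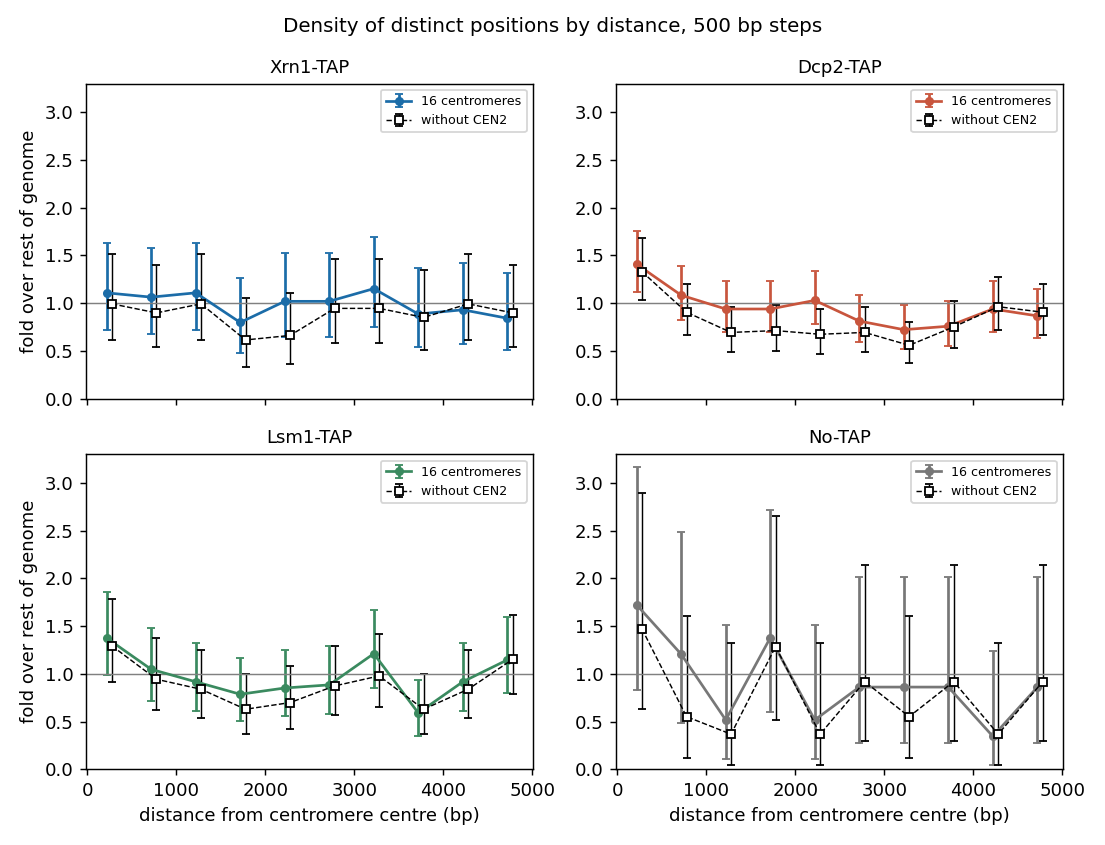
Density of distinct positions as a fold over the rest of the genome (y axis) by distance from the centre of the centromere in 500 bp steps (x axis, bp), with exact 95% Poisson bars, for all 16 centromeres (filled) and without CEN2 (open). With all 16 centromeres the innermost step of Dcp2-TAP is at 1.41, and without CEN2 its step at 3000 to 3500 bp is at 0.558.

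Split at 2500 bp, the inner part of the windows held 115, 299 and 153 positions in the tagged libraries, with 31 in No-TAP, and the outer part held 109, 227 and 145 in these and 22 in No-TAP. The outer part of Dcp2-TAP had a fold of 0.820 (0.716 to 0.934), the inner part 1.08 (0.960 to 1.21). In Xrn1-TAP the outer and inner folds were 0.966 (0.793 to 1.17) and 1.02 (0.841 to 1.22). In Lsm1-TAP they were 0.949 (0.801 to 1.12) and 1.00 (0.849 to 1.17), and in No-TAP 0.757 (0.474 to 1.15) and 1.07 (0.724 to 1.52). Without CEN2 the outer and inner folds of Dcp2-TAP were 0.774 (0.670 to 0.889) and 0.863 (0.753 to 0.984), both with intervals below 1. The other libraries without CEN2 had outer and inner folds of 0.926 and 0.832 in Xrn1-TAP and 0.894 and 0.880 in Lsm1-TAP. In No-TAP these were 0.7345 and 0.808, both lower than in Dcp2-TAP, on 20 and 22 positions. The intervals of the other 3 libraries held 1 in both parts, with and without CEN2, and the difference between libraries was not tested. By tags, with CEN2 kept, the outer and inner folds of Dcp2-TAP were 0.984 and 1.13, so its outer part was close to 1. The tag folds were 1.04 and 1.195 in Xrn1-TAP, 0.897 and 1.17 in Lsm1-TAP, and 0.924 and 1.27 in No-TAP.

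At the centromeres themselves positions were few. Within 150 bp of the centre, 4.81 kb in all, lay 9 positions with 81 tags in Xrn1-TAP, 19 with 145 tags in Dcp2-TAP, 11 with 62 tags for Lsm1-TAP, and 1 with 2 tags for No-TAP. An even spread gives 6.78, 16.6 and 9.18 positions for the tagged libraries and 1.75 in No-TAP. The folds were 1.33 (0.607 to 2.52), 1.14 (0.687 to 1.78) and 1.20 (0.598 to 2.14) in the tagged libraries in that order and 0.573 (0.0145 to 3.19) in No-TAP, and all 4 intervals held 1. Within 300 bp, Dcp2-TAP stood at 1.53 (1.14 to 2.02) on 51 positions, with an interval above 1. Against intergenic sequence elsewhere, which is denser than the genome as a whole, that zone of Dcp2-TAP stood at 0.853 (0.635 to 1.12). Within 150 bp the folds against intergenic sequence were 0.766 (0.350 to 1.46), 0.635 (0.382 to 0.992) and 0.75 (0.374 to 1.34) in the tagged libraries. In No-TAP that fold was 0.324 (0.00819 to 1.81). Of these the interval of Dcp2-TAP lay just below 1. The ratio of shares to No-TAP had intervals from 0.304 to 101 over the 3 tagged libraries, too wide to compare strains here.

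These positions came from 4 centromeres in Xrn1-TAP, 9 in Dcp2-TAP, 9 with Lsm1-TAP, and 1 with No-TAP. CEN8 had 3, 3 and 2 of them in the tagged libraries and was the 1 centromere with a No-TAP position. At CEN8, Xrn1-TAP had 43 tags at 1 position of the reverse strand, 110 bp left of the centre (chromosome 8, index 105533), the highest of all its window positions. CEN3 had 4, 1 and 1 positions in the tagged libraries, with 0 in No-TAP. Within 150 bp of CEN12 and CEN7 no library had a position.

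When the window was narrowed after these positions had been seen, the 60 bp on each side of the centre held 3 positions in Xrn1-TAP, 1 in Dcp2-TAP, 3 with Lsm1-TAP, and 0 with No-TAP. The even spread gives 2.72, 6.68 and 3.68 in the tagged libraries and 0.700 in No-TAP. All 3 positions of Xrn1-TAP lay at CEN3, the 1 of Dcp2-TAP at CEN2, and those of Lsm1-TAP at CEN2, CEN6 and CEN10. The fold of Dcp2-TAP was 0.150 (0.00379 to 0.834), while in Xrn1-TAP it was 1.10 (0.227 to 3.22) and with Lsm1-TAP 0.814 (0.168 to 2.38), and in No-TAP the interval reached 5.27. Dcp2-TAP alone thus fell below the rest of the genome there by its interval, and the difference between the libraries was not tested.

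Just outside, 61 to 200 bp from the centre, the counts were 9 in Xrn1-TAP, 36 in Dcp2-TAP, 15 with Lsm1-TAP, and 3 with No-TAP. The folds were 1.42 (0.651 to 2.70), 2.32 (1.62 to 3.21) and 1.75 (0.981 to 2.89) in the tagged libraries and 1.85 (0.380 to 5.39) in No-TAP. Against intergenic sequence elsewhere they were 0.823 (0.376 to 1.56), 1.29 (0.904 to 1.79) and 1.10 (0.614 to 1.81), with 1.04 (0.215 to 3.05) in No-TAP, all 4 intervals holding 1. The 36 positions of Dcp2-TAP came from 12 of the 16 centromeres. A difference between these flanks and other intergenic sequence was thus not detectable at this depth.

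In ChIP-exo the 5′ ends at the borders of a bound particle lie on the forward strand to its left and on the reverse strand to its right, though the files do not say whether their positions are such ends. Of the positions 61 to 200 bp from the centre, 5 of 9 had this orientation in Xrn1-TAP, 20 of 36 in Dcp2-TAP and 8 of 15 with Lsm1-TAP, and 2 of 3 with No-TAP. The share in Dcp2-TAP was 55.6% (38.1 to 72.1, Clopper-Pearson). Within 150 bp, 13 of 19 in Dcp2-TAP had it, or 68.4% (43.4 to 87.4), and 4 of 11 with Lsm1-TAP. No share of either zone differed from an even split by its interval. Beyond 200 bp, out to 500 bp, the share was 83.3% (51.6 to 97.9) in Xrn1-TAP, on 10 of 12 positions, and 48.8% (32.9 to 64.9) in Dcp2-TAP, on 20 of 41.

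**Figure D4:**
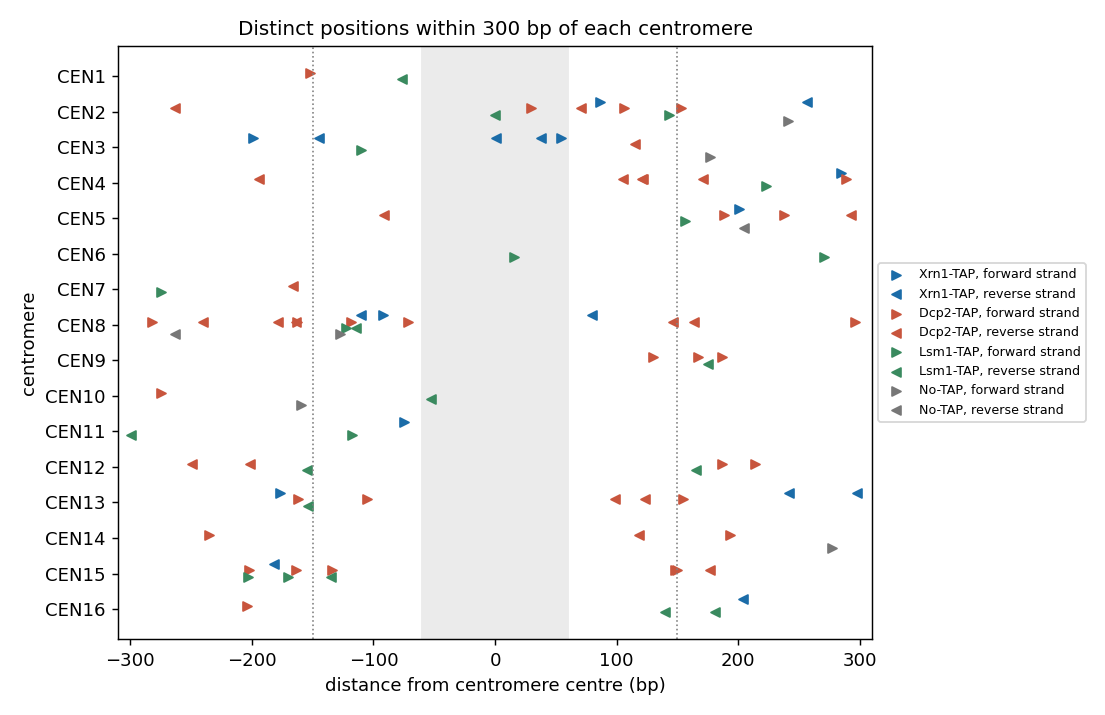
Each distinct position within 300 bp of a centromere centre (x axis, bp; rows are centromeres), by library (colour) and strand (arrow to the right for forward, to the left for reverse). Grey marks the inner 60 bp on each side and dotted lines 150 bp. The grey band holds 7 positions, 3 of Xrn1-TAP, 1 of Dcp2-TAP and 3 of Lsm1-TAP, with 0 in No-TAP.

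Sorted by kind of sequence, no kind in the windows differed from the same kind elsewhere by its interval in any library. Coding regions held 95, 234 and 136 of the window positions in the tagged libraries, with 24 in No-TAP. Their density was 0.874 (0.706 to 1.07), 0.910 (0.797 to 1.04) and 0.865 (0.725 to 1.02) times that of coding regions elsewhere in the tagged libraries and 0.870 (0.556 to 1.30) times in No-TAP. The 300 bp upstream of start codons stood at 1.00 (0.767 to 1.29), 0.910 (0.767 to 1.07) and 1.03 (0.810 to 1.29) times in the tagged libraries and 0.724 (0.373 to 1.27) times in No-TAP. Other intergenic sequence stood at 1.11 (0.858 to 1.42), 0.980 (0.825 to 1.16) and 1.14 (0.904 to 1.41) times in the tagged libraries and at 1.16 (0.671 to 1.87) times in No-TAP.

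When each kind of sequence in the windows is given its density elsewhere, 231, 569 and 311 positions are predicted for the tagged libraries and 59.7 for No-TAP. The observed numbers were 0.968 (0.846 to 1.10), 0.924 (0.847 to 1.01) and 0.959 (0.853 to 1.07) times these in the tagged libraries and 0.888 (0.665 to 1.16) times in No-TAP. Without CEN2, coding regions stood at 0.773 (0.612 to 0.965) in Xrn1-TAP, 0.787 (0.678 to 0.907) in Dcp2-TAP and 0.805 (0.667 to 0.965) with Lsm1-TAP, and at 0.733 (0.440 to 1.15) in No-TAP. Upstream sequence without CEN2 was at 0.732 (0.600 to 0.884) in Dcp2-TAP. It was at 0.882 (0.654 to 1.17) in Xrn1-TAP and 0.945 (0.729 to 1.20) with Lsm1-TAP. In No-TAP it was lower than in Dcp2-TAP, at 0.582, with a wider interval (0.265 to 1.11). The intervals of Xrn1-TAP, Lsm1-TAP and No-TAP held 1. These values, too, set 15 windows without their fullest member against an untrimmed rest.

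**Figure D5:**
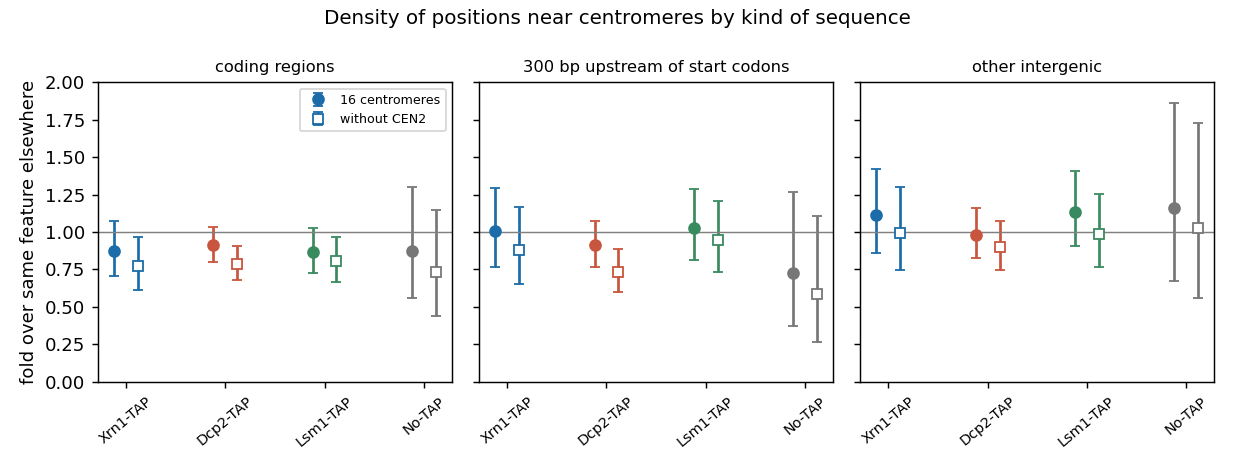
Density of positions in the centromere windows as a fold over the same kind of sequence elsewhere (y axis) in coding regions, the 300 bp upstream of start codons and other intergenic sequence, for the 3 tagged libraries and No-TAP, with exact 95% bars. Filled points use all 16 centromeres and open points leave out CEN2. The open points for coding regions lie at 0.773, 0.787 and 0.805 in the tagged libraries and 0.733 in No-TAP.

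The windows hold the start codons of 86 coding genes. A gene was called when the 300 bp upstream of its start codon held at least 2 times the mean gene's positions, which takes at least 2, 5 and 3 positions in the tagged libraries, with 1 in No-TAP. In Xrn1-TAP 16 of the 86 were called, or 18.6%, beside 18.7% of all 5998 coding genes. In Dcp2-TAP 4 were called, or 4.65%, beside 10.7%, and with Lsm1-TAP 4, or 4.65%, beside 10.9%. In No-TAP 14 were called, or 16.3%, beside 18%. The shares of Xrn1-TAP and No-TAP were thus near the background, and those of Dcp2-TAP and Lsm1-TAP lay below it. These low counts depend on the window: with 150 bp upstream, 10 genes passed in Dcp2-TAP and 9 with Lsm1-TAP, beside 12.8% and 11% of all genes.

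Genes with no upstream position at all were about as frequent near centromeres as elsewhere in Xrn1-TAP, Dcp2-TAP and No-TAP. They were 51.2% of the 86 in Xrn1-TAP, beside 52.9% of all genes, 25.6% in Dcp2-TAP, beside 24.9%, and 83.7% in No-TAP, beside 82.0%. In Lsm1-TAP they were 27.9%, beside 45.3% of all genes, so genes with an upstream position were more common near centromeres, mostly with 1 or 2 positions. Genes that share an upstream region count the same positions. The Lsm1-TAP density upstream of start codons was 1.03 (0.810 to 1.29) times that elsewhere. In all, 4 of the 86 had no position in any library (4.65%, beside 9.67% of all genes), namely MPP10, SGN1, VRL1 and YML003W, chosen here for their values. Positions in all 4 libraries were found at 8 of the 86 (9.30%, beside 8.12%).

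The highest genes were the histone pair. HTA2 had 5, 20 and 2 upstream positions in the tagged libraries, with 1 in No-TAP, and ranked 109th of all coding genes by the mean share over the 4 libraries. HTB2 had 5, 11 and 6 in the tagged libraries, with 1 in No-TAP, and ranked 115th. No other gene in the windows ranked above 436th, the place of PET8, a mitochondrial carrier of S-adenosylmethionine. Its upstream window had 3, 4 and 1 positions in the tagged libraries, with 1 in No-TAP. The 300 bp upstream of HTA2 and of HTB2 do not overlap.

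The next genes had few positions, and since the ranking gives each library equal weight, 1 No-TAP position counts as 4.48 times the mean gene and raises a place strongly. The septin gene CDC10 and the mitochondrial ribosomal protein gene MRPL32, which share an upstream region near CEN3, had 3, 2 and 1 positions in the tagged libraries, with 1 in No-TAP. CIT1 had 1, 3 and 3 in the tagged libraries, with 1 in No-TAP. MNN1 had 1, 4 and 2 in the tagged libraries, with 1 in No-TAP. Each of these had at least 1 position in all 4 libraries. RPL14B had 1, 6 and 1 positions in the tagged libraries, with 1 in No-TAP, and MIX17, a mitochondrial intermembrane space protein gene near CEN13, had 2, 5 and 0 in the tagged libraries, with 1 in No-TAP. YRB1, a regulator of Ran near CEN4, had 2, 2 and 4 in the tagged libraries, with 0 in No-TAP. CDH1, an activator of the anaphase-promoting complex, and ERP6 share a region near CEN7 with 0, 3 and 1 positions in the tagged libraries, with 1 in No-TAP. With 0 or 1 position in No-TAP, no gene here can be set apart from the untagged strain.

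Of the 32 genes nearest to the centromeres, 13 turn their start codon and 19 their stop codon to the centromere. Upstream regions of the 13 averaged 0.636, 0.768 and 1.10 times the mean gene's positions in the tagged libraries and 0.689 times in No-TAP, on 7, 22 and 15 positions and 2. Those of the 19 averaged 1.12, 0.764 and 0.751 times in the tagged libraries and 0.471 times in No-TAP, on 18, 32 and 15 positions and 2. Genes with at least 1 upstream position made up 56.2%, 75% and 65.6% of the 32 in the tagged libraries and 12.5% in No-TAP, beside 47.1%, 75.1% and 54.7% of all genes in the tagged libraries and 18.0% in No-TAP.

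Among genes that start towards the centromere, TFC3 had 0, 1 and 2 upstream positions in the tagged libraries, with 0 in No-TAP, and NUP60 had 1, 0 and 0 in the tagged libraries, with 0 in No-TAP. ECM15 had 0, 2 and 1 in the tagged libraries, with 1 in No-TAP, and YCR001W had 0, 3 and 0 in the tagged libraries, with 0 in No-TAP. IRC22 had 2, 3 and 1 in the tagged libraries, with 0 in No-TAP, and LOC1 had 0, 2 and 1 in the tagged libraries, with 0 in No-TAP. MNN1, given above, was the fullest of the 13 in Dcp2-TAP, with 4. ERG26 had 0, 0 and 2 in the tagged libraries, with 0 in No-TAP, and OSH7 had 0, 3 and 1 in the tagged libraries, with 0 in No-TAP. AVT1 and CIT3 each had 1, 0 and 2 in the tagged libraries, with 0 in No-TAP. MET14 had 1 in each tagged library and 0 in No-TAP, and RRP6, whose start codon lies 189 bp from the centre of CEN15, had 0, 3 and 0 in the tagged libraries, with 0 in No-TAP. Of the 13, those with a position made up 46.2%, 69.2% and 76.9% in the tagged libraries and 15.4% in No-TAP, beside the shares of all genes given above.

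Among genes that end towards the centromere, PRE3 had 2, 4 and 1 upstream positions in the tagged libraries, with 0 in No-TAP, and DOM34, whose upstream region is shared with RLP7, had 1, 4 and 1 in the tagged libraries, with 0 in No-TAP. YPT7 had 3, 1 and 1 in the tagged libraries, with 0 in No-TAP, and NTH1, whose region overlaps that of YRB1, had 2 in each tagged library and 0 in No-TAP. RMD1 and YIL001W each had 2, 1 and 1 in the tagged libraries, with 0 in No-TAP. With RPL14B and CIT1, given above, these were the fuller ones. NTH2 had 1, 2 and 0 in the tagged libraries, with 0 in No-TAP, VPS1 had 1, 0 and 2 in the tagged libraries, with 0 in No-TAP, and HAT1 had 1, 1 and 0 in the tagged libraries, with 0 in No-TAP. DNM1 and EFM5 each had 0, 2 and 0 in the tagged libraries, with 0 in No-TAP, and PHO80 had 0, 1 and 1 in the tagged libraries, with 0 in No-TAP. DEG1 and CDC5 had 1 position, in Dcp2-TAP, YLR001C had 1 in Xrn1-TAP and YCL001W-B 1 with Lsm1-TAP, each with 0 in No-TAP. SGN1 was the 1 gene of the 32 with none in any library.

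The windows hold 3 of 275 tRNA genes (1.09%, beside 1.33% of the genome), SUF10 and YNCN0017W near CEN14 and YNCP0008C near CEN16, and no other RNA gene. With 50 bp on each side, SUF10 had 0, 3 and 0 positions in the tagged libraries, with 0 in No-TAP. YNCN0017W had 2, 2 and 0 in the tagged libraries, with 0 in No-TAP, and YNCP0008C had 1 in each tagged library and 0 in No-TAP. Together they had 0.757 (0.156 to 2.23), 0.648 (0.237 to 1.42) and 0.181 (0.00457 to 1.01) times the density of the 272 tRNA genes elsewhere in the tagged libraries. In No-TAP they had 0 positions, with an upper bound of 4.85 times. With 3 genes, a difference from tRNA genes elsewhere was not detectable in any library.

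Of the 320 bins of 500 bp in the windows, those with at least 3 times the mean bin numbered 20 in Xrn1-TAP, 14 in Dcp2-TAP, 28 with Lsm1-TAP, and 44 with No-TAP. That is 6.25%, 4.38% and 8.75% in the tagged libraries and 13.8% in No-TAP, beside 6.57%, 6.2% and 9.38% of all bins in the tagged libraries and 14.4% in No-TAP. In No-TAP 1 position is enough to pass. CEN2 held 7, 6 and 7 of the bins in the tagged libraries, with 7 in No-TAP. The counts were near the background, and bins empty in all 4 libraries made up 12.5% of the window bins beside 16.1% of all bins.

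Among the 10 leading bins by the mean share over the 4 libraries, 5 lay at other centromeres than CEN2. The bin 4500 to 5000 bp left of CEN6, between the transposon reading frame YFL002W-A and SPB4, a helicase of ribosome assembly, had 8, 6 and 5 positions in the tagged libraries, with 1 in No-TAP. It borders a transposon, and how uniquely its tags map was not tested. The 500 bp left of CEN8, past the end of RPL14B, had 2, 10 and 3 in the tagged libraries, with 2 in No-TAP. The 500 bp right of CEN14 had 1, 11 and 3 in the tagged libraries, with 1 in No-TAP. Both of these touch the centromere. The CEN8 bin holds 0.0240% of the positions of Dcp2-TAP and 0.0458% of those of No-TAP, and the CEN14 bin 0.0264% and 0.0229%. The bin 500 to 1000 bp right of CEN5, between IRC22 and MNN1, had 5, 8 and 3 in the tagged libraries, with 1 in No-TAP, and that 500 to 1000 bp right of CEN4, at the end of NTH1, had 5, 4 and 8 in the tagged libraries, with 0 in No-TAP. The first bin by this mean, 500 to 1000 bp left of CEN2 at the start of ECM15, had 3, 13 and 3 in the tagged libraries, with 4 in No-TAP. It owes its place to No-TAP, and by the tagged libraries alone it was 7th. The bin that holds the start codon of HTA2 had 9, 21 and 6 in the tagged libraries, with 1 in No-TAP, and was 1st by the tagged libraries alone.

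Positions of one library were seldom met in another. Of the window positions of Xrn1-TAP, 10.7% (6.99 to 15.52) had a Dcp2-TAP position of the same strand within 10 bp, beside 16.02% (15.47 to 16.59) of its positions elsewhere. Of those of Lsm1-TAP, 9.06% (6.06 to 12.9) had a Dcp2-TAP position that near, beside 14.7% (14.2 to 15.2) elsewhere. Of those of Dcp2-TAP, 6.08% (4.20 to 8.48) had a Lsm1-TAP position, beside 9.47% (9.18 to 9.75) elsewhere, and 6.08% (4.20 to 8.48) a Xrn1-TAP position, beside 8.10% (7.84 to 8.37). Between Xrn1-TAP and Lsm1-TAP, 10.3% (6.62 to 15.01) of the window positions of Xrn1-TAP were matched, beside 10.3% (9.89 to 10.8) elsewhere. The matched share with Dcp2-TAP was lower near centromeres than elsewhere for Xrn1-TAP, with intervals that overlap little, and for Lsm1-TAP, with intervals apart. For Dcp2-TAP positions the intervals lay apart with Lsm1-TAP, but overlapped with Xrn1-TAP. Local density, which affects matching, was not adjusted for. Within the CEN2 window, 31.6% (17.5 to 48.6) of the Xrn1-TAP positions had a Dcp2-TAP position that near. These were 12 of the 24 matched Xrn1-TAP window positions. Near a No-TAP position lay 3, 10 and 2 of the window positions of the tagged libraries. These shares were 1.34%, 1.90% and 0.671%, beside 2.58%, 2.35% and 2.05% elsewhere. They were lower in the windows of each tagged library, with intervals that overlap those elsewhere.

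Of the window positions, a smaller share than elsewhere carried a single tag. Positions with 1 tag made up 21.4% (16.2 to 27.4) of the window positions in Xrn1-TAP, 17.1% (13.99 to 20.6) in Dcp2-TAP, 18.8% (14.5 to 23.7) with Lsm1-TAP and 13.2% (5.48 to 25.3) in No-TAP. Elsewhere they made up 26.4% (25.8 to 27.1), 23.98% (23.6 to 24.4) and 26.8% (26.3 to 27.4) in the tagged libraries and 30.8% (29.4 to 32.2) in No-TAP. The share was lower near centromeres in all 4 libraries, and the intervals do not overlap for No-TAP, Dcp2-TAP or Lsm1-TAP. The mean was 9.70 tags in Xrn1-TAP, 8.90 in Dcp2-TAP and 8.94 with Lsm1-TAP, and 8.53 in No-TAP, beside 8.60, 8.00 and 8.42 elsewhere in the tagged libraries and 7.08 elsewhere in No-TAP. Without RNA genes and the 30 kb at chromosome ends, the shares elsewhere were 25.6%, 23.2% and 25.8% in the tagged libraries and 29.9% in No-TAP, and the means 8.96, 8.31 and 8.84 tags in the tagged libraries and 7.45 in No-TAP. Over positions with at least 2 tags, the mean was 12.1, 10.5 and 10.8 tags in the windows for the tagged libraries and 9.67 for No-TAP, beside 11.3, 10.2 and 11.2 elsewhere for the tagged libraries and 9.78 for No-TAP, so it was lower in the windows of Lsm1-TAP and No-TAP.

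The positions with most tags were scattered over the windows. In Xrn1-TAP the second after that at CEN8 had 40 tags, 924 bp right of CEN5. In Dcp2-TAP the highest had 51 tags, 2756 bp right of CEN15 between RRP6 and ALG6, and the next 48 tags in MRPL32, 4583 bp right of CEN3. In Lsm1-TAP they had 41 tags in PHO80, 590 bp left of CEN15, and 36 tags in SWC4, 1657 bp right of CEN7. In No-TAP they had 35 tags in DOM34, 628 bp left of CEN14, and 20 tags in WBP1, 2618 bp left of CEN5. No 2 of these 8 positions coincide, and positions elsewhere in the genome reached 71, 85 and 130 tags in the tagged libraries, with 52 in No-TAP.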

How the data were processed

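The deposited tables give raw tag counts for each genome position: forward strand, reverse strand and the sum of both, per the file headers, unnormalized. Per the labels, formaldehyde (1%) fixation came before lysis, sonication in 30 cycles took chromatin to 250 to 300 bp, and lambda exonuclease and then RecJf acted on the bead-bound DNA. The sources used here do not give the aligner, the genome build or how duplicates were handled. Although the design text names 2 replicates, each file was treated as 1 library, and it is unknown whether files pool replicates.

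Centromere positions of the R64 assembly were entered by hand, moved by -360 bp on chromosome 11, and all 16 fell in the gap between the last left-arm and first right-arm gene of the RefSeq R64 gene table. As the build of the files is not named, that table was tested by moving it in steps of 10 bp: the lag with most positions upstream of start codons was at most 30 bp on any chromosome, and 10 bp for the 1608 genes within 100 kb of the centromeres. Gene distances carry that error, and R64 coordinates are not printed. Indices are those of the files.

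Folds are ratios of positions per kb in the windows and in the nuclear genome outside them without the ribosomal DNA repeat, with exact conditional binomial, Poisson or Clopper-Pearson 95% intervals for counting error only. PCR reads without molecular identifiers are not independent molecules. Strains, at 1 library each, were compared without p-values. Sequence was classed as RNA gene with 50 bp flanks, coding, 300 bp upstream of a start codon, or other, in that order. Named were all centromeres, their nearest genes, the 12 coding genes and the RNA genes with the highest mean upstream share over the 4 libraries, the 10 fullest bins and the 2 positions with most tags per library. The windows, lists and tests were chosen with earlier results of these data known; the gap-middle centres, the 60 bp and 61 to 200 bp zones and the inner and outer parts without CEN2 were added after seeing the values. The procedures were tested on simulated Poisson counts, which lack the clustering of the real positions. How often the intervals hold the true value under such clustering was not tested. Python 3.11.15, numpy 2.4.6, pandas 2.3.3, scipy 1.17.1 and matplotlib 3.10.9 were used. No genome sequence was used here, so centromere sequences are not shown.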

Additional observations from a re-analysis of the deposited data

How the results depend on the processing

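Of 174 values under alternative settings, 146 stayed within the interval of the value reported or within 1.5 times the count, and 28 moved. A reversal could be called only for a reported interval that left out 1. All reported intervals of these folds and shares held 1, and counts were not checked for it, so no value could count as reversed. Thinning to the No-TAP tag total left No-TAP itself unchanged by design. Of 139 alternatives with an interval, 8 put it on another side of 1: those of Dcp2-TAP within 5000 bp without CEN2 and with the ribosomal DNA kept (0.881), of Lsm1-TAP with it kept (0.886), and of the centromere zone in Dcp2-TAP with 300 bp (1.53), 60 bp, 61 to 200 bp and gap-middle centres, and in Lsm1-TAP with those centres. All 36 ratios of shares to No-TAP stayed within their intervals, at 0.906 to 1.17. The pooled folds over the rest of the genome ran from 0.771 to 1.14 over all settings and moved in Dcp2-TAP only: to 1.06 by tags, 1.04 with positions of at least 2 tags, 1.06 when thinned to the No-TAP tag total, 0.818 without CEN2 and 1.08 with windows of 2500 bp. The fold within 150 bp moved in Dcp2-TAP to 0.450 with 100 bp, 0.150 with 60 bp, 2.32 at 61 to 200 bp and 1.92 with centres in the middle of the gene gaps, in Lsm1-TAP to 2.29 with those centres, and in No-TAP to 0 with 100 bp, with 60 bp and without CEN8. Those middles lie up to 412 bp from the centromere. Called genes moved with 150 bp upstream to 25 in Xrn1-TAP, 10 in Dcp2-TAP, 9 with Lsm1-TAP and 8 with No-TAP, with 500 bp to 7 in Lsm1-TAP, by tags to 12 in Dcp2-TAP and 15 in Lsm1-TAP, and at 4-fold to 2 in Xrn1-TAP, 2 in Dcp2-TAP and 1 in Lsm1-TAP. Called bins, out of 320, are likewise given with the share of all bins. At 5-fold they moved to 8 in Xrn1-TAP (3.39%), 8 in Dcp2-TAP (2.71%) and 6 in Lsm1-TAP (3.11%). By tags they moved to 40 in Xrn1-TAP (11.7%) and 27 in Dcp2-TAP (7.93%). The cause of the changes was not tested. Leaving out sequence near No-TAP positions could give no ratio to No-TAP. No paired analysis was possible because each strain has 1 library. Depth limits the zones at the centre, where No-TAP has 1 position within 150 bp and 0 within 60 bp.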
